A study of Mus musculus with 6 samples.

Results

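The genes of the proteasome were examined in tumors of the LC and IP + LC models. Members were the protein-coding genes whose symbol begins with Psma to Psmg followed by a digit, plus Ubd, which gave 51 of the 31130 genes in the count tables. Of these, 49 had enough UMIs for a test, among the 11240 genes tested in all. Psmc3ip met the rule on the symbol but encodes a recombination cofactor and not a subunit. Tumor tissue was taken on day 21 from 3 tumors per group, all in female wild-type C57BL/6 mice aged 6 to 8 weeks at the start. In both groups, Lewis lung carcinoma (LLC) cells carrying enhanced green fluorescent protein, a mouse lung cancer line that grows in this strain, had been placed in the left lung on day 14. The IP + LC mice had been given bleomycin, which injures the lung and causes fibrosis, at 2.0 mg/kg by oropharyngeal aspiration 14 days before the cells. The LC mice had received no bleomycin. The labels do not say whether each tumor came from a mouse of its own, so p-values measure the spread between these tumors.

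The proteasome degrades proteins tagged with ubiquitin. Its barrel-shaped 20S core is built from rings of α and β subunits, and the 19S regulatory particle at its ends recognizes, unfolds and feeds in the substrate. In immune cells and in cells exposed to interferon, the catalytic subunits Psmb5, Psmb6 and Psmb7 are replaced in newly made cores by Psmb8, Psmb9 and Psmb10, which yields the immunoproteasome and more peptides suited to MHC class I. The activator PA28, made of Psme1 and Psme2, opens the core, and Ubd encodes FAT10, a ubiquitin-like modifier that is also induced by interferon.

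Sequences around the start site are printed for 5 of the loci in the comparison of inducible with constitutive subunits. Those of Psmb7, Psmb10 and Psme2 are not printed, so the printed loci do not give the share with a match. The printed sequences were read from RefSeq promoters on GRCm38.p6, which covered 43 of the 51 members. They run 5′ to 3′ on the strand of the gene, or on that of Tap1 for the interval shared with Psmb9. The window was 250 bases before to 50 bases after the RefSeq start, and both strands were searched for the interferon-stimulated response element (GAAA, any 2 bases, GAAA), the interferon gamma-activated site TTCNNNGAA and the antioxidant response element TGACNNNGC. These letters were present in 3.44%, 8.30% and 12.4% of 32851 promoters and in 5, 3 and 6 of the 43 members. Capitals mark a match. Psmb8 (chr17:34198075-34198194, plus strand) had a gamma-activated site, Psme1 (chr14:55578434-55578513, plus strand) had a response element downstream of its start, at bases 10 to 19, and Psmb5 (chr14:54617996-54618115, minus strand) and Psmb6 (chr11:70525237-70525356, plus strand) had antioxidant response elements. Psmb9 and Tap1 are transcribed in opposite directions from a shared interval (chr17:34187331-34187555, plus strand) without a match to the letters of either interferon element.
Psmb8: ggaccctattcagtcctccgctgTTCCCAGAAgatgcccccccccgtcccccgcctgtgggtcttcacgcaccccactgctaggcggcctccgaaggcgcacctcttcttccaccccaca
Psmb9-Tap1: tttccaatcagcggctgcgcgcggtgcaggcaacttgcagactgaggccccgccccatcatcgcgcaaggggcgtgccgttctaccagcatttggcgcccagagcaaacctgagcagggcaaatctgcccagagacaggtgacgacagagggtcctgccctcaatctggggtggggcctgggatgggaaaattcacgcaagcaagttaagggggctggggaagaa
Psme1: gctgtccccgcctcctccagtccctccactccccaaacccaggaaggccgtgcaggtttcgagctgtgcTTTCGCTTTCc
Psmb5: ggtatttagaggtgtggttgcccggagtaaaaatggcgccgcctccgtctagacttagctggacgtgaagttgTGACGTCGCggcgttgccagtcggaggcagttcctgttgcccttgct
Psmb6: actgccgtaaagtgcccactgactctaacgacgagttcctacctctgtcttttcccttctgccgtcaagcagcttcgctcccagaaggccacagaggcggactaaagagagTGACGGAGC
No match was found in the windows of Psmb10, Psme2 and Ubd. Outside the printed loci, the interferon-stimulated response element matched in Psmb3, Psmd4, Psmd9 and Psmg4, and the gamma-activated site in Psmd2 and Psmg1. The antioxidant response element also matched in Psmc6, Psmd9, Psmd12 and Psme4. Each element thus also occurred outside the inducible and constitutive genes. A match is a description of letters, and binding was not measured.

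The values are UMI counts, in which each mRNA molecule tagged at its 3′ end is counted once. The libraries held 592733 to 1379759 UMIs in the LC group and 1336919 to 1631066 in the IP + LC group. Levels are given as CPM, counts scaled to a common library total with TMM factors, and compare tumors rather than genes. LC replicate 1 stood apart. It had the fewest UMIs, and its proteasome levels were above those of both other LC tumors in 43 of 49 members, while this held for 41.7% of all genes. The median log2 gap to the mean of the other LC tumors was 0.63 for the members and -0.03 for all genes. Its mitochondrial share of UMIs was 3.84%, beside 9.38% and 12.0% in the other LC tumors and 4.40% to 8.32% in the IP + LC tumors, and 15182 genes were detected in it, beside 20522 and 24293 in the other LC tumors. Across the 49 members, which share these 3 libraries, the gap had a Spearman correlation of -0.348 with transcript length. The part of these properties in the results was not tested, and the main values are also given without that tumor. Because tissue was measured in bulk, more cells of a type and more RNA per cell cannot be told apart.

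Of the tested proteasome genes, many rose in the IP + LC model and none fell. By the quasi-likelihood test of edgeR, at a limit of 0.1 after Benjamini-Hochberg adjustment over all genes, 18 of 49 members were upregulated, beside 16.8% of all genes tested. The 18 include Ubd, which had enough UMIs for the test only in the IP + LC tumors. In either direction, 36.4% of all genes were called. No member was downregulated, beside 19.6% of all genes, and no member with a negative change reached an unadjusted p of 0.05 by edgeR, DESeq2 or limma voom. The log2 fold change was above 0 in 46 of 49 members, beside 51.1% of all genes, with a median of 0.48 against 0.02. In 20 of 49 members all 3 IP + LC tumors lay above all 3 LC tumors, beside 21.6% of all genes. Without LC replicate 1, 40 members were upregulated, beside 28.3% of all genes. The count fell when any other tumor was left out, to 12 without LC replicate 2, 11 without LC replicate 3, and 10, 8 and 10 without IP + LC replicates 1, 2 and 3, beside 8.81%, 11.2%, 9.25%, 7.61% and 11.1% of all genes. The change was described by class. Among the 5 immunoproteasome genes 4 were upregulated with a median log2 fold change of 1.43, among the 3 constitutive catalytic genes none was with a median of 0.30, and among 39 other tested members 12 were with a median of 0.40. Psme2b and Ubd, both called, are counted in none of these classes. Without LC replicate 1 the respective counts were 5, 2 and 31, beside 28.3% of all genes, with medians of 1.85, 0.59 and 0.61.

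**Figure D1:**
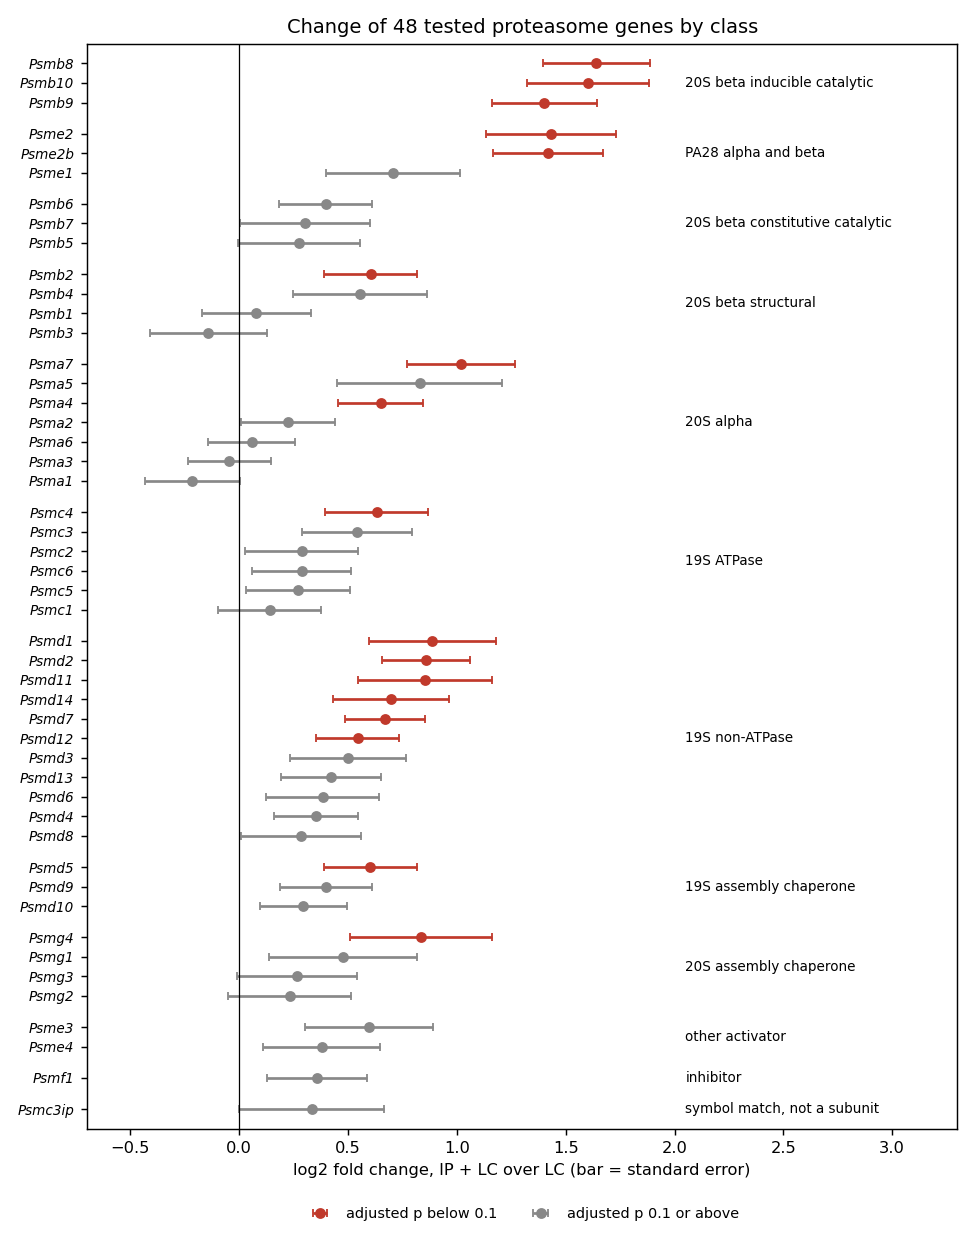
Log2 fold change between IP + LC and LC tumors (x axis) for the 48 tested members other than Ubd, grouped by class, with the standard error as bar. Red points passed the adjusted limit of 0.1, and the 3 inducible catalytic subunits with Psme2 and Psme2b sit furthest to the right, between 1.40 and 1.64.

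The 3 inducible catalytic subunits were all higher in the IP + LC tumors. Psmb8, which replaces the β5 subunit, had 279, 175.5 and 172 CPM in LC replicates 1 to 3 and 582, 706 and 653 CPM in the IP + LC tumors. Every IP + LC tumor lay above the highest LC tumor, which was replicate 1. The log2 fold change was 1.64 with a standard error of 0.25 (adjusted p = 0.00237, edgeR), and 1.91 without LC replicate 1. Psmb10, which replaces β2, had 239, 135 and 121 CPM in the LC tumors and 449, 516 and 523 CPM in the IP + LC tumors. The groups were again separate, and the log2 fold change was 1.60 with a standard error of 0.28 (adjusted p = 0.00447, edgeR), or 1.96 without LC replicate 1. Psmb9, which replaces β1, had 117, 83.0 and 79.7 CPM in the LC tumors and 196, 282 and 254 CPM in the IP + LC tumors. Its log2 fold change was 1.40 with a standard error of 0.24 (adjusted p = 0.00408, edgeR), or 1.60 without LC replicate 1. All 3 genes passed the limit under each of the 16 alternative settings. Psmb8 and Psmb9 overlap exons of Gm20496 and Tap1 over 14.7% and 5.79% of their transcripts, and the use of the strand in counting is not given in the sources used here.

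Of the PA28 subunits, Psme2 passed the limit and Psme1 did not, and the difference between them was not tested. Psme2 had 375, 179 and 197 CPM in the LC tumors and 593, 718 and 700 CPM in the IP + LC tumors. The groups did not overlap, and the log2 fold change was 1.43 with a standard error of 0.30 (adjusted p = 0.00907, edgeR), or 1.85 without LC replicate 1. The last 500 bases of its transcript are shared with Psme2b, a near-identical copy on chromosome 11, so reads of the pair could be assigned to either gene. Psme2b rose by 1.42 on the log2 scale (adjusted p = 0.00489, edgeR), or by 1.69 without LC replicate 1, and the sum of both genes was 425, 209 and 225 CPM in the LC tumors and 685, 819 and 785 CPM in the IP + LC tumors. Psme1 had 355, 174 and 167 CPM in the LC tumors and 338, 428 and 359 CPM in the IP + LC tumors. LC replicate 1 lay within the range of the IP + LC tumors, and the log2 fold change of 0.71 with a standard error of 0.31 did not pass the limit (adjusted p = 0.119, edgeR). Without that tumor it was 1.15 and passed.

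Ubd was nearly undetected in the LC tumors. It had 0, 4 and 0 UMIs in LC replicates 1 to 3 and 49, 101 and 43 UMIs in the IP + LC tumors, which corresponded to 35.5, 59.0 and 31.2 CPM. Every IP + LC tumor lay above every LC tumor, and the highest LC level was 3.13 CPM. Ubd passed the filter on low counts through the IP + LC tumors, so its call is not given as support. The fitted log2 fold change of 4.91 rests on the 4 UMIs of LC replicate 2 and is not a bound. Leaving out LC replicate 1, 2 or 3 moved it to 4.65, 8.72 and 4.24, respectively.

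**Figure D2:**
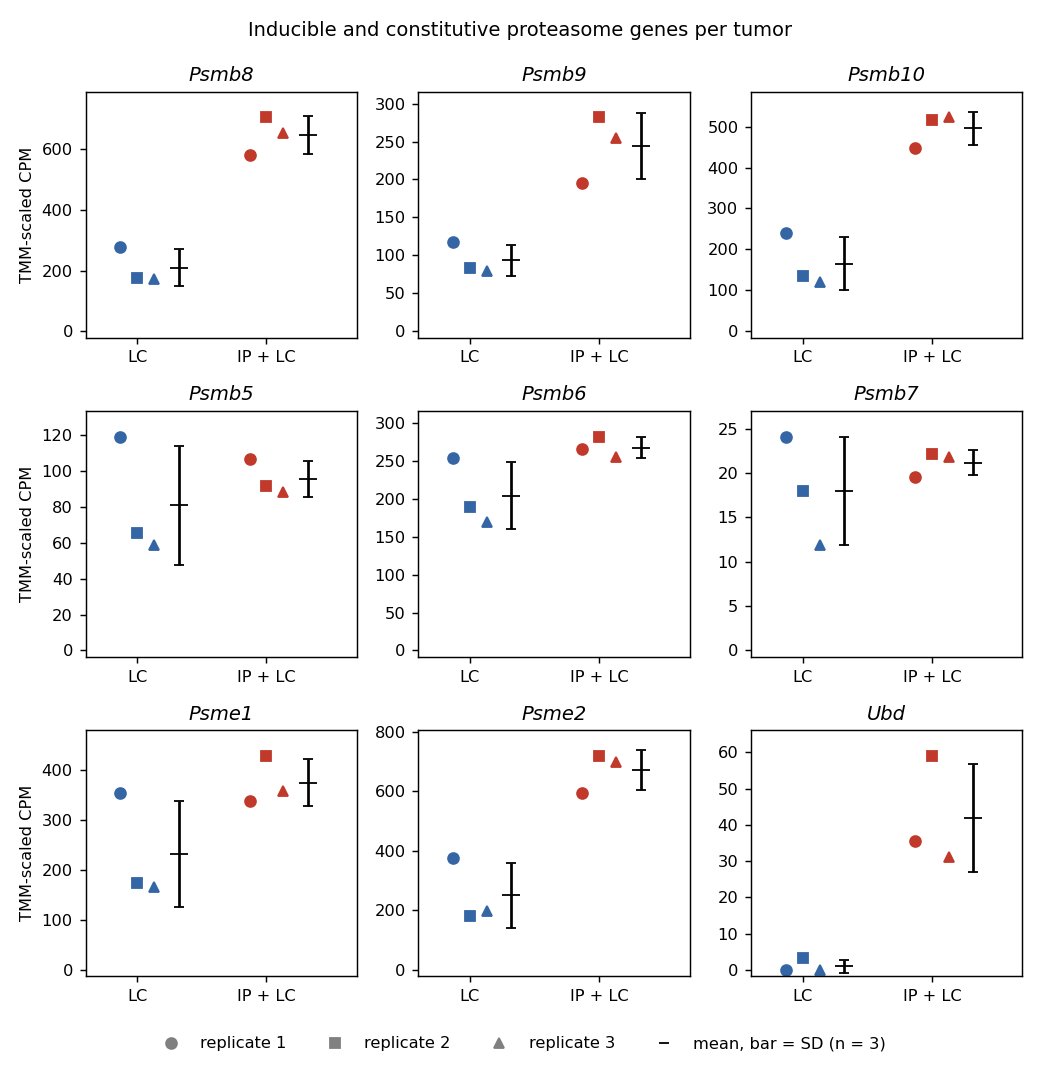
TMM-scaled CPM (y axis) of the inducible genes, the constitutive catalytic genes, Psme1, Psme2 and Ubd in each tumor, with the mean and SD of 3 tumors at the right of each group. LC replicate 1 (circle) is the highest LC tumor in every panel but that of Ubd, and reaches or exceeds the range of the IP + LC tumors for Psmb5, Psmb7 and Psme1.

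With all 6 tumors, the constitutive catalytic subunits did not pass the limit. Psmb5, the β5 subunit, had 119, 65.0 and 58.5 CPM in the LC tumors and 107, 91.6 and 87.9 CPM in the IP + LC tumors, with a log2 fold change of 0.28 and a standard error of 0.28. Psmb6, the β1 subunit, had 255, 190 and 169 CPM in the LC tumors and 266, 283 and 256 CPM in the IP + LC tumors, with a log2 fold change of 0.40 and a standard error of 0.21 (adjusted p = 0.202, edgeR). Psmb7, the β2 subunit, had 14, 23 and 14 UMIs in the LC tumors and 27, 38 and 30 UMIs in the IP + LC tumors, and its log2 fold change was 0.30 with a standard error of 0.30. Psmb6 was higher in all IP + LC tumors by a small margin, and the groups overlapped for Psmb5 and Psmb7. None of the 3 reached an unadjusted p of 0.05 by edgeR, DESeq2 or limma voom, while limma voom with sample quality weights called 2, in a setting that called 28.3% of all genes and 77.6% of the members upregulated. Without LC replicate 1, Psmb5 and Psmb6 passed the limit with log2 fold changes of 0.63 and 0.59, and Psmb7 did not with 0.51. Near-identical sequence of other genes covers 85.4% of the last 500 bases of Psmb5, and Nek6 shares 81.4% of those of Psmb7.

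Dividing the inducible by the constitutive subunit of the same catalytic site within each tumor gave a measure that does not depend on library scaling. The Psmb8/Psmb5 ratio of UMIs was 2.35, 2.70 and 2.94 in the LC tumors and 5.46, 7.70 and 7.43 in the IP + LC tumors. The mean log2 ratio was higher by 1.36 in the IP + LC tumors, a 2.56-fold difference. The Psmb9/Psmb6 ratio was 0.460, 0.438 and 0.470 in the LC tumors and 0.736, 0.998 and 0.994 in the IP + LC tumors, a difference of 0.98 on the log2 scale. The Psmb10/Psmb7 ratio was 9.93, 7.48 and 10.2 in the LC tumors and 22.9, 23.3 and 24.0 in the IP + LC tumors, a difference of 1.36. No ratio overlapped between the groups. Without LC replicate 1 the 3 differences were 1.27, 0.99 and 1.42. In each of the 3 comparisons the two-sided exact permutation test gave p = 0.1, the smallest value that 3 against 3 tumors allow, so 0.05 could not be reached.

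**Figure D3:**
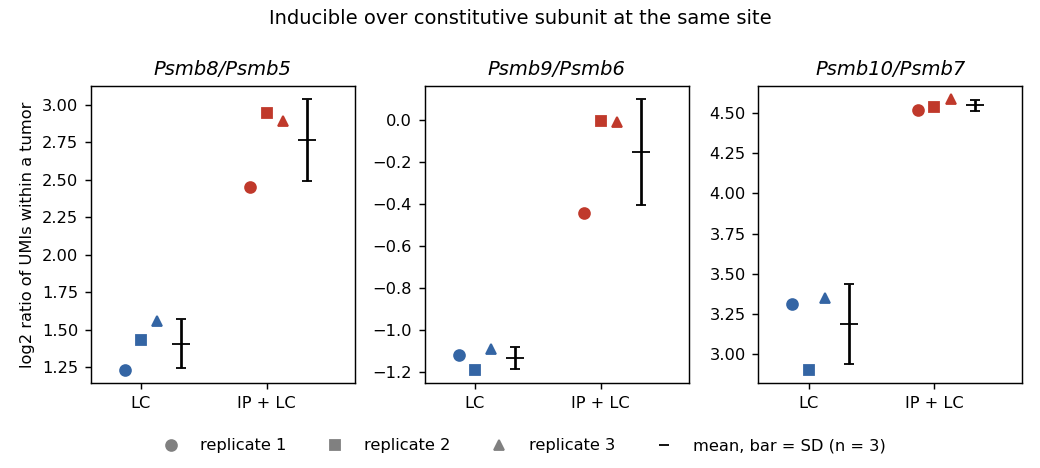
Log2 ratio of UMIs of the inducible over the constitutive subunit at each catalytic site (y axis) in each tumor, with mean and SD of 3 tumors per group. The LC tumors, replicate 1 included, lie below all IP + LC tumors in each panel, by 0.98 to 1.36 between the group means.

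Amount and composition of proteasome mRNA came apart in LC replicate 1. The 51 members together made 8965, 5866 and 5662 CPM in the LC tumors and 10040, 10910 and 10190 CPM in the IP + LC tumors. Without Psmb8, Psmb9, Psmb10, Psme1, Psme2, Psme2b and Ubd, the sum was 7549 CPM in LC replicate 1, 5086 and 4897 CPM in LC replicates 2 and 3, and 7587 to 8096 CPM in the IP + LC tumors. LC replicate 1 was therefore close to the IP + LC tumors in the amount of the remaining members. The share of Psmb8, Psmb9 and Psmb10 in the UMIs of the 6 catalytic genes was nevertheless 61.5% in that tumor (95% Wilson interval 57.5 to 65.3%), beside 59.1% and 60.9% in LC replicates 2 and 3 and 75.8%, 79.1% and 79.7% in the IP + LC tumors. Relative to 100 UMIs of the 29 other 20S and 19S subunits, the inducible catalytic genes had 9.66, 8.95 and 8.70 UMIs in the LC tumors and 18.2, 21.2 and 21.6 in the IP + LC tumors. The constitutive catalytic genes had 5.60 to 6.21 such UMIs in the LC tumors and 5.52 to 5.82 in the IP + LC tumors. Psme1 had 5.39, 3.96 and 3.90 in the LC tumors and 5.01, 6.05 and 5.42 in the IP + LC tumors, which overlapped. Intervals cover counting error only. The shares set UMIs of different genes against each other. Sequence of other genes covers 85.4% of the last 500 bases of Psmb5 and 81.4% of those of Psmb7. The part of this shared sequence in the height of the shares was not tested.

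**Figure D4:**
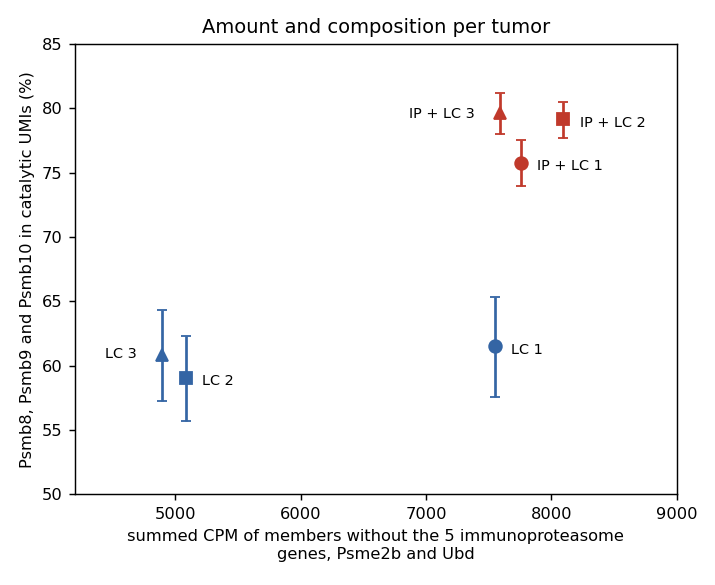
Share of Psmb8, Psmb9 and Psmb10 in the UMIs of the 6 catalytic genes with its 95% Wilson interval (y axis) against the summed CPM of the members other than Psmb8, Psmb9, Psmb10, Psme1, Psme2, Psme2b and Ubd (x axis), for each of the 6 tumors. LC replicate 1 comes close to the amount of the IP + LC tumors (7549 CPM) and has the share of the LC tumors (61.5%).

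Of the marker sums, those of macrophages and proliferation were well above the other LC tumors in LC replicate 1. Its T cell sum was the lowest of the LC tumors. So were its sums for B cells, dendritic cells, neutrophils, type 2 alveolar cells, endothelium and alveolar macrophages, each still above all IP + LC tumors. Counts of called markers stand beside 16.8% of all genes upregulated and 19.6% downregulated. The summed CPM of 6 macrophage markers was 1772 in LC replicate 1, 646 and 497 in the other LC tumors and 1668 to 2067 in the IP + LC tumors, and 2 of the 6 were upregulated. The sum of 4 proliferation markers was 365 in LC replicate 1, 84.6 and 83.9 in the other LC tumors and 719 to 848 in the IP + LC tumors, and 3 of 4 were upregulated. The markers did not share this gap alike. Cdk1, which was not called, had 169 CPM in LC replicate 1, beside 21.9 and 17.8 in the other LC tumors. Mki67 had 24.1 CPM in LC replicate 1, beside 18.0 and 20.3. The sum of 6 leukocyte markers was 1560, 1275 and 1436 in the LC tumors and 1552 to 2107 in the IP + LC tumors, and 2 of 6 were upregulated. The 6 T cell markers summed to 138 to 174 CPM in the LC tumors and 108 to 197 CPM in the IP + LC tumors, with none upregulated and 1 downregulated. All 4 type 2 alveolar cell markers, all 3 airway markers, all 4 endothelial markers, all 5 alveolar macrophage markers and all 4 B cell markers were downregulated, as were 3 of 4 neutrophil markers and 1 of the 2 dendritic cell markers tested. The part of these cell types in the proteasome results was not tested.

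Of the 7 tested subunits of the α ring, 2 were upregulated, beside 16.8% of all genes. Psma7 (α4) had 582, 383 and 342 CPM in the LC tumors and 896, 957 and 789 CPM in the IP + LC tumors. The groups were separate, and the log2 fold change was 1.02 with a standard error of 0.25 (adjusted p = 0.0167, edgeR), or 1.29 without LC replicate 1. Psma4 (α3) had 110, 128 and 118 CPM in the LC tumors and 170, 211 and 180 CPM in the IP + LC tumors, with a log2 fold change of 0.65 (adjusted p = 0.0358, edgeR). The other 5 tested α subunits did not pass the limit, and the lowest was Psma1 (α6) with -0.21 and a standard error of 0.22. Psma5 (α5), singled out after its values were seen, had 337.5 CPM in LC replicate 1, 125 and 122 CPM in the other LC tumors and 314 to 365 CPM in the IP + LC tumors. Its log2 fold change was 0.83 and not called, and 1.47 without LC replicate 1. Of the 4 β subunits without catalytic activity, Psmb2 (β4) was upregulated, with 182.5, 137 and 119.5 CPM in the LC tumors and 215 to 228 CPM in the IP + LC tumors and a log2 fold change of 0.60 (adjusted p = 0.0655, edgeR). Psmb3 (β3) was the lowest at -0.14, and became 0.22 without LC replicate 1. For Psma4 and Psma5, 50.4% and 95.8% of the last 500 bases are shared with other genes, and 88.2% for Psmb3.

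In the 19S particle, 7 of 17 subunits were upregulated, beside 16.8% of all genes. Of the 11 non-ATPase subunits, 6 were upregulated and all 11 had a positive log2 fold change. Psmd1, a scaffold of the base, had 37.9, 92.5 and 83.0 CPM in the LC tumors and 138, 142 and 125 CPM in the IP + LC tumors, and a log2 fold change of 0.89 (adjusted p = 0.0514, edgeR). Gm21972 shares 61.0% of its last 500 bases. Psmd2, the other large scaffold, had 102, 79.9 and 74.6 CPM and 155, 161 and 144 CPM, and a log2 fold change of 0.86 (adjusted p = 0.0146, edgeR). Its near-identical copy Gm5422 covers 99.2% of its last 500 bases. Psmd11 had 46.5, 122 and 105 CPM in the LC tumors and 162 to 175 CPM in the IP + LC tumors, with a log2 fold change of 0.85. For Psmd1 and Psmd11, unlike most members, LC replicate 1 was the lowest LC tumor, and without it the log2 fold changes were smaller at 0.63 and 0.58. Psmd14, the deubiquitinase of the lid, had 188, 103 and 102 CPM in the LC tumors and 202 to 222 CPM in the IP + LC tumors, with a log2 fold change of 0.70. Its partner in the lid, Psmd7, had 127, 139.5 and 138 CPM and 213, 232 and 200 CPM, and a log2 fold change of 0.67 (adjusted p = 0.0272, edgeR). Psmd12 had 0.54, and the lowest of the class was Psmd8 with 0.28, which was not called. Among the 6 ATPases, which form the ring that unfolds substrates, Psmc4 alone was upregulated with a log2 fold change of 0.63 (adjusted p = 0.0779, edgeR), and Psmc1 was the lowest at 0.14. Without LC replicate 1, all 6 ATPases and all 11 non-ATPase subunits were upregulated, beside 28.3% of all genes.

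Assembly chaperones, which are not part of the finished complex, gave 2 upregulated genes of 7, beside 16.8% of all genes. Psmd5, a chaperone of the 19S base, rose by 0.60 on the log2 scale (adjusted p = 0.0658, edgeR), with 72.3, 55.6 and 49.1 CPM in the LC tumors and 94.3, 89.9 and 80.6 CPM in the IP + LC tumors. Psmg4, a chaperone of the 20S core, had 70.6, 33.7 and 27.1 CPM in the LC tumors and 74.0, 78.8 and 69.0 CPM in the IP + LC tumors. LC replicate 1 fell within the IP + LC range, and the log2 fold change of 0.83 passed the limit (adjusted p = 0.0884, edgeR). The lowest chaperone was Psmg2 with 0.23. The other activators Psme3, a nuclear relative of PA28, and Psme4 had log2 fold changes of 0.59 and 0.38, the inhibitor Psmf1 had 0.36 and Psmc3ip had 0.33, and none of these passed. The members left out of the test were Psma8, a subunit of the testis, with 1 UMI in each IP + LC tumor and 0 in each LC tumor, and Psmb11, the subunit of the thymus, with 0, 2 and 1 UMIs in the LC tumors and 0 in the IP + LC tumors. Both were at or under the floor of 3 UMIs.

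Genes linked to the proteasome outside the rule on the symbol were taken from lists chosen by function, and their counts stand beside 16.8% of all genes upregulated and 19.6% downregulated. Among 14 cofactors 3 were upregulated, namely the ubiquitin receptor Adrm1 (log2 fold change 1.02) and the deubiquitinases Uchl5 (0.80) and Usp14 (0.62) that dock on the 19S particle. Among 9 regulators of proteasome gene transcription 3 were upregulated and 1 was downregulated. Irf1 had 164, 106 and 60.2 CPM in the LC tumors and 405, 416 and 339 CPM in the IP + LC tumors, with a log2 fold change of 1.84, and Nlrc5, a transactivator of MHC class I genes, had 2.49. For Irf1, a transcription factor induced by interferon, LC replicate 1 was the highest LC tumor and the groups did not overlap. Mafg rose by 1.48, while Nfe2l1, the activator of proteasome genes through antioxidant response elements, had 0.23 and was not called. Ngly1, which processes that activator, fell by 0.83 on the log2 scale (adjusted p = 0.0272, edgeR). Nfe2l1, Ngly1 and B2m were named after their values were seen. Of 13 tested genes of ubiquitin and its conjugation 5 were upregulated, among them the ubiquitin-like Isg15 (2.19), its conjugating enzyme Ube2l6 (1.45), its protease Usp18 (1.15) and its activating enzyme Uba7 (0.91).

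Of the 9 genes that load peptides on MHC class I, 8 were upregulated, beside 16.8% of all genes, and the median log2 fold change was 1.08. Tap1 and Tap2, the subunits of the peptide transporter, had log2 fold changes of 1.72 and 1.36, the peptide editor Tapbp had 1.23, and the chaperone Calr had 1.11. B2m, the light chain of MHC class I, was the exception with 0.15 and was not called. Tap1 had 110, 76.8 and 55.9 CPM in the LC tumors and 212, 310.5 and 267 CPM in the IP + LC tumors, so that the groups did not overlap for this neighbor of Psmb9.

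The count of upregulated members moved with the settings. It was 12 of 49 with upper quartile scaling, beside 14.3% of all genes, 21 of 49 with library size only, beside 22.4%, 16 of 49 with DESeq2, beside 12.7%, and 12 of 48 after thinning to the smallest library, beside 11.9%. Psmb8, Psmb9, Psmb10, Psme2, Psme2b, Psma7 and Psmd2 were upregulated in each of the 17 settings. Another 10 called members, Psma4, Psmb2, Psmc4, Psmd1, Psmd5, Psmd7, Psmd11, Psmd12, Psmd14 and Psmg4, each lost the call when at least 1 of the tumors other than LC replicate 1 was left out.

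**Figure D5:**
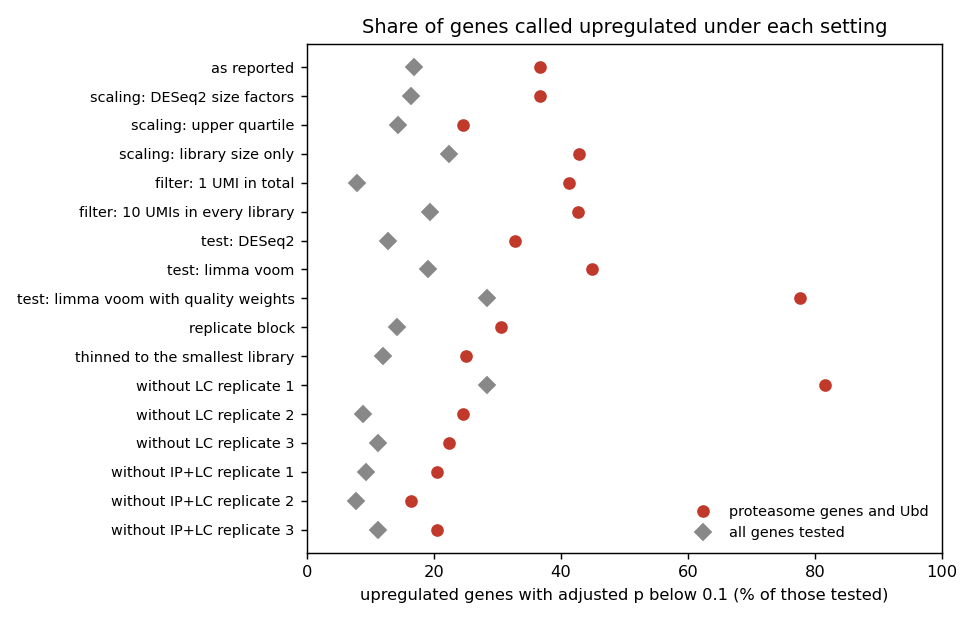
Percentage of tested proteasome members (red circles) and of all tested genes (grey diamonds) called upregulated (x axis) under each setting of the fit (y axis). The members lie above the genes as a whole in each setting, and reach 81.6% without LC replicate 1 against 28.3% of all genes.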

How the data were processed

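The 6 tumors were sequenced by bulk RNA barcoding. The authors extracted UMIs with UMI-tools 1.1.1, trimmed reads with Trim Galore 0.6.7, aligned them to GRCm38 with HISAT2 2.2.1, assigned genes with featureCounts 2.0.1 and deposited counts of UMIs per gene without normalization. The annotation release and strand setting are not given in the sources used here. From these counts, edgeR 4.0.16 in R 4.3.3 with TMM scaling (factors 0.905 to 1.07) and filterByExpr (minimum count 10, minimum total 15) fitted all 6 libraries with no block term, and adjustment was over 11240 genes. The floor was 3 UMIs. The fit, tested on simulated data, recovered 192 of 200 genes changed by 2 on the log2 scale, with 20 false calls among 10923 genes. That change was larger than those of all called members but Ubd, the next largest being 1.64 for Psmb8. No simulated library was given a profile apart from its group, as LC replicate 1 has. Recovery and false calls for the members were therefore not measured. Alternatives were other scalings, filters, DESeq2 1.42.0, limma 3.58.1 voom, a replicate block, thinning to 592733 UMIs and each tumor left out in turn. Coordinates and shared sequence came from GENCODE M21 transcripts with blastn 2.17.0+, at 81 bases and 95% identity or more. Named genes were the inducible and constitutive genes, every other called member, the largest and smallest change of each class, and up to 4 called genes per list. The members and lists were chosen with earlier results of these data known. A regulator is not reported here and was left out of its list.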

Additional observations from a re-analysis of the deposited data

How the results depend on the processing

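The number of upregulated members was 18 as reported. It ranged from 8 to 40 when each tumor was left out in turn, the highest value being without LC replicate 1, and was 38 with limma voom and sample quality weights, beside 28.3% of all genes. Leaving out LC replicate 3 gave 11, IP + LC replicate 1 or 3 gave 10 and IP + LC replicate 2 gave 8, beside 11.2%, 9.25%, 11.1% and 7.61% of all genes for LC replicate 3 and IP + LC replicates 1, 3 and 2. It was 12 with upper quartile scaling or thinning, 21 with library size only, which moved the median of all genes by 0.16, 16 with DESeq2 and 13 of the 37 tested members with under 10% of their last 500 bases shared (35.1%, beside 36.7% of all tested members), the last being an alternative chosen after seeing the data. The counts and medians of the classes without LC replicate 1 were also chosen after seeing the data. Of all genes, 4088 were called as reported, 6233 with quality weights, 2413 after thinning and 2265 to 6691 with a tumor left out. No member was downregulated in any of these settings. Psmb8, Psmb9, Psmb10, Psme2, Psme2b, Psma7 and Psmd2 were upregulated in all 17 settings.

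The replicate numbers did not pair the tumors, with correlations of 0.023, -0.111 and 0.10 between tumors of the same number. With the replicate block 15 members were upregulated, of which 14 were among the 18, beside 14.2% of all genes, and 3410 genes were called in all. The differences of the log2 ratios, 1.36, 0.98 and 1.36, are the same with the block by construction, and stayed above 0 in the other alternatives.

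The direction turned only for members that were not called. Psma3 went from -0.05 to 0.10 with library size only, 0.067 with the weakest filter, 0.031 with quality weights, 0.060 without LC replicate 1 and 0.016 without IP + LC replicate 3. Psmb3 became 0.14 with quality weights and 0.22 without LC replicate 1. Psmc1 became -0.050 after thinning and -0.0074 without LC replicate 2, Psmg2 -0.0086 after thinning, Psma6 -0.010 with upper quartile scaling, -0.0095 without LC replicate 2 and -0.0097 without LC replicate 3, and Psmb1 -0.062 without LC replicate 2 and -0.046 without LC replicate 3. With each tumor left out in turn, these genes ranged from -0.0074 to 0.38 (Psmc1), -0.10 to 0.060 (Psma3), -0.0097 to 0.19 (Psma6), -0.062 to 0.38 (Psmb1) and -0.31 to 0.22 (Psmb3). The cause was not tested. LC replicate 1, with 592733 UMIs, limits what can be detected, since 3 UMIs were 5.06 CPM there.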
